A study of Homo sapiens with 4 samples.

Results

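The mitochondrial ribosomal protein genes, nuclear genes named MRPL for the large and MRPS for the small subunit of the mitochondrial ribosome, were examined in 2 liver tumour cell lines after knockdown of COP1. Members were all genes whose symbol consists of MRPL or MRPS, a number and at most 1 letter, and whose TPM (a level corrected for transcript length and library size) was at least 1 in any library. Of the 46427 genes in the tables, 77 had such a symbol, and all 77 passed this filter, each with at least 1 TPM in all 4 libraries. By the position of their protein, 51 belonged to the large and 26 to the small subunit. MRPS30 and MRPS18A, despite their names, are counted with the large subunit, where their proteins lie.

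Huh7 and HepG2 are established human lines that the labels call hepatocellular carcinoma. Cells of each line, labelled WT or COP1 knockdown, received 20 nM of NC-siRNA, the negative control, or of COP1-siRNA, which targets COP1, and RNA was taken 48 h later. Knockdown by siRNA is transient and incomplete. COP1 encodes a ubiquitin ligase that marks other proteins for degradation. There was 1 library for each line and siRNA, so differences have no replicate check, no p-value is given, and a fold threshold describes these libraries only.

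The mitochondrial ribosome translates the few messages encoded in mitochondrial DNA, all of them for subunits of the respiratory chain and the ATP synthase. Its RNAs are made in the mitochondrion, whereas its proteins are encoded in the nucleus, made in the cytosol and imported. One class of these proteins descends from the bacterial ribosome and another is found only in mitochondrial ribosomes. Liver cells are rich in mitochondria, and the genes for these proteins are expressed in all tissues that respire.

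The targeted gene was lower in both lines. COP1 was at 19.7 TPM in Huh7 NC-siRNA, 6.18 in Huh7 COP1-siRNA, 26.9 in HepG2 NC-siRNA and 16.1 in HepG2 COP1-siRNA. Its log2 fold change, computed here and below as the log2 ratio of TPM + 1 between the COP1-siRNA and the NC-siRNA library, was −1.53 in Huh7 and −0.71 in HepG2. From the mean read coverage per base, scaled for depth, it was −0.67 and −0.42. Here too 1 was added before the ratio, which draws values towards 0 where coverage is low. How much of the gap to the TPM values this accounts for was not tested. The number of reads is unknown, but relative to the NC-siRNA library the COP1-siRNA library had a depth of 1.13 in Huh7 and of 1.27 in HepG2. All 8 hepatocyte-lineage markers were above 1 TPM in all 4 libraries. Of 7 markers of blood, endothelial and stromal cells, PTPRC was listed at 0 and VWF was at most 0.0880 TPM, while CD68 ranged from 15.6 to 58.2 TPM, PECAM1 reached 7.36 TPM in Huh7, ACTA2 15.4 and COL1A1 2.47 TPM in HepG2, and COL1A2 was at most 0.385 TPM. In HepG2 all 8 hepatocyte-lineage markers were higher with COP1-siRNA, with a median log2 fold change of 0.41, against −0.09 in Huh7, and their part in the results below was not tested.

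COP1-siRNA left the level of nearly all members close to that of the control. The summed TPM of the 77 members was 7835 in Huh7 NC-siRNA and 7961 in Huh7 COP1-siRNA, and 9852 and 9779 in the corresponding HepG2 libraries. This is 0.784%, 0.796%, 0.985% and 0.978% of all TPM. The median log2 fold change of the members was 0.05 in Huh7 and 0.003 in HepG2, against −0.001 and −0.008 over all genes tested (those with at least 1 TPM in at least 1 library of the pair). In each line, 72 members, or 93.5%, lay within 0.3 of 0 on this log2 scale, against 77.5% of the genes tested in Huh7 and 80.9% in HepG2. Cytosolic ribosomal proteins had shares of 98.75% in Huh7 and 100% in HepG2, and nuclear-encoded respiratory chain subunits 96% and 93.3%. Values this close to 0 were thus not particular to the members.

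Lower values at the 2-fold threshold were seen for 2 members in Huh7, MRPL18 and MRPL57, and for none in HepG2, and by coverage for MRPL18 alone. Over all genes tested, 0.446% were at least 2-fold lower in Huh7 and 0.394% in HepG2. None of the 77 was at least 2-fold higher in either line, against 0.638% of genes tested in Huh7 and 0.54% in HepG2. At 1.5-fold, 3 members were lower in Huh7 (MRPL18, MRPL57 and MRPL42) and 2 in HepG2 (MRPL18 and MRPL42), against backgrounds of 2.68% and 1.87%. No member was 1.5-fold higher in either line, where 2.8% and 2.56% of the genes tested were. Both lines together had 0 members at least 2-fold lower, against 0.0501% of the genes tested in both, and 2 members at least 1.5-fold lower, against 0.493%. MRPL18 is on the list of changed genes that the study chose on these same libraries, so its place in these counts is not independent evidence. The study describes that list as changed at least 2-fold in both lines, but by the values used here MRPL18 fell short of 2-fold in HepG2.

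**Figure D1:**
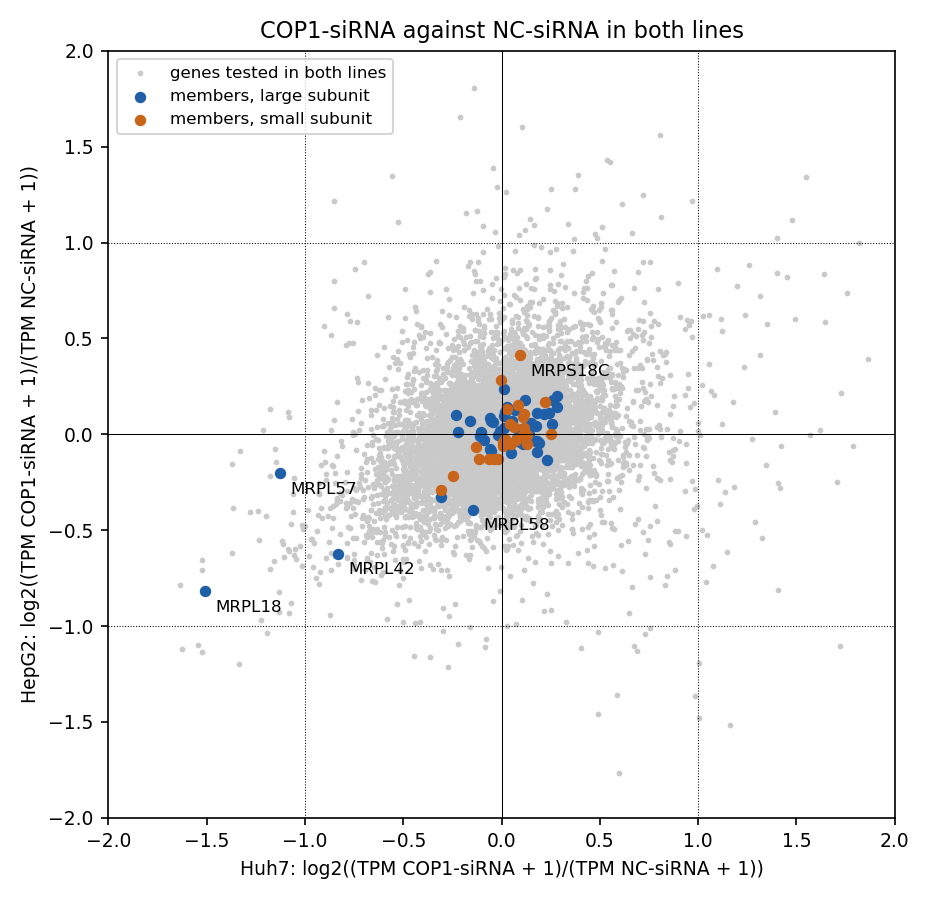
Log2 fold change of each gene with COP1-siRNA against NC-siRNA in Huh7 (x axis) and HepG2 (y axis), on the log2(TPM + 1) scale. Blue and orange points are the 77 members, grey points the 11970 genes tested in both lines, of which 7 lie outside the plotted range, and dotted lines mark 2-fold. The members cluster around 0, with MRPL18 at −1.51 and −0.82, MRPL42 at −0.83 and −0.62, and MRPL57 at −1.13 and −0.20 apart from them.

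MRPL18 (gene 29074, chromosome 6, 159789812 to 159798429, plus strand of GRCh38) had the lowest log2 fold change of the 77 in each line. Its protein, uL18m, belongs to the family of the bacterial protein that binds the 5S ribosomal RNA in the large subunit. It was at 187 TPM in Huh7 NC-siRNA, 65.1 in Huh7 COP1-siRNA, 235 in HepG2 NC-siRNA and 133 in HepG2 COP1-siRNA. In both lines the COP1-siRNA library was below both control libraries. In such bulk RNA, fewer cells that hold a transcript and less of it in each cell cannot be told apart. The log2 fold changes were −1.51 and −0.82, which left 34.8% of the control TPM in Huh7 and 56.5% in HepG2. Among the members ordered from the highest TPM, MRPL18 was in place 10 of the Huh7 control and 43 after knockdown, and in HepG2 in places 9 and 28. Only 10 of the 13000 genes tested in Huh7, itself included, were as low, and 102 of 14456 in HepG2. Coverage gave nearly the same values, −1.43 and −0.84.

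TCP1, a subunit of the cytosolic chaperonin, lies head to head with MRPL18 on the opposite strand, with 108 bases between the 5′ ends of the genes as annotated. It was chosen for this position after its values were seen. Its level was 472 and 477 TPM in the control and knockdown libraries of Huh7 and 620 and 630 TPM in those of HepG2, with log2 fold changes of 0.01 and 0.02. The lower level was therefore seen in MRPL18 and not in this neighbour.

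MRPL42 (gene 28977, chromosome 12, 93467514 to 93516214, plus strand) was the other member at least 1.5-fold lower in both lines. Its protein, mL42, is a mitochondria-specific part of the large subunit. It had the lowest mean level of the 77, with 14.3 TPM in Huh7 NC-siRNA, 7.60 in Huh7 COP1-siRNA, 23.4 in HepG2 NC-siRNA and 14.9 in HepG2 COP1-siRNA. Each COP1-siRNA library was below its own control, but the HepG2 library with COP1-siRNA was slightly above the Huh7 control. The log2 fold changes were −0.83 and −0.62 by TPM and −0.69 and −0.60 by coverage. At this low level the 1 added before the ratio draws the coverage values towards 0. Coverage per unit of TPM shifted with COP1-siRNA by 1.001 (Huh7) and 1.000 (HepG2) of the median shift of the members. The −0.69 is thus not read as a weaker fall. At 7.60 TPM, MRPL42 in Huh7 COP1-siRNA was the lowest value of any member in any library.

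MRPL57 (gene 78988, chromosome 13, 21176649 to 21179084, plus strand), which encodes mL63, another mitochondria-specific protein of the large subunit, was past 2-fold lower by TPM in Huh7 alone, and its coverage there did not follow. Its TPM was 92.2 in Huh7 NC-siRNA and 41.6 in Huh7 COP1-siRNA, a log2 fold change of −1.13. In HepG2 the TPM was 47.0 and 40.8, a log2 fold change of −0.20 by TPM and by coverage. The Huh7 control stood apart from the other 3 libraries, which lay close together. The mean coverage per base of the gene was 101 in Huh7 NC-siRNA, 128 in Huh7 COP1-siRNA, 109 in HepG2 NC-siRNA and 120 in HepG2 COP1-siRNA. The coverage per unit of TPM was 1.09, 3.07, 2.33 and 2.94 in the same order, so it was the Huh7 control in which the 2 columns differed from the rest. By depth-scaled coverage the log2 fold change in Huh7 was 0.15, of opposite sign to that by TPM.

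No other member differed in this way in Huh7. The log2 fold changes by coverage and by TPM were over 0.25 apart for MRPL57 only in Huh7 and for MRPS25, a protein of the small subunit, only in HepG2. MRPS25 was at 21.2 TPM in both Huh7 libraries, at 19.7 TPM in the HepG2 control and at 24.2 TPM after knockdown there. Its log2 fold change in HepG2 was 0.28 by TPM and −0.18 by coverage, so its direction there depended on the column. For the remaining 76 members of each line the difference was at most 0.183 in Huh7 and 0.138 in HepG2.

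**Figure D2:**
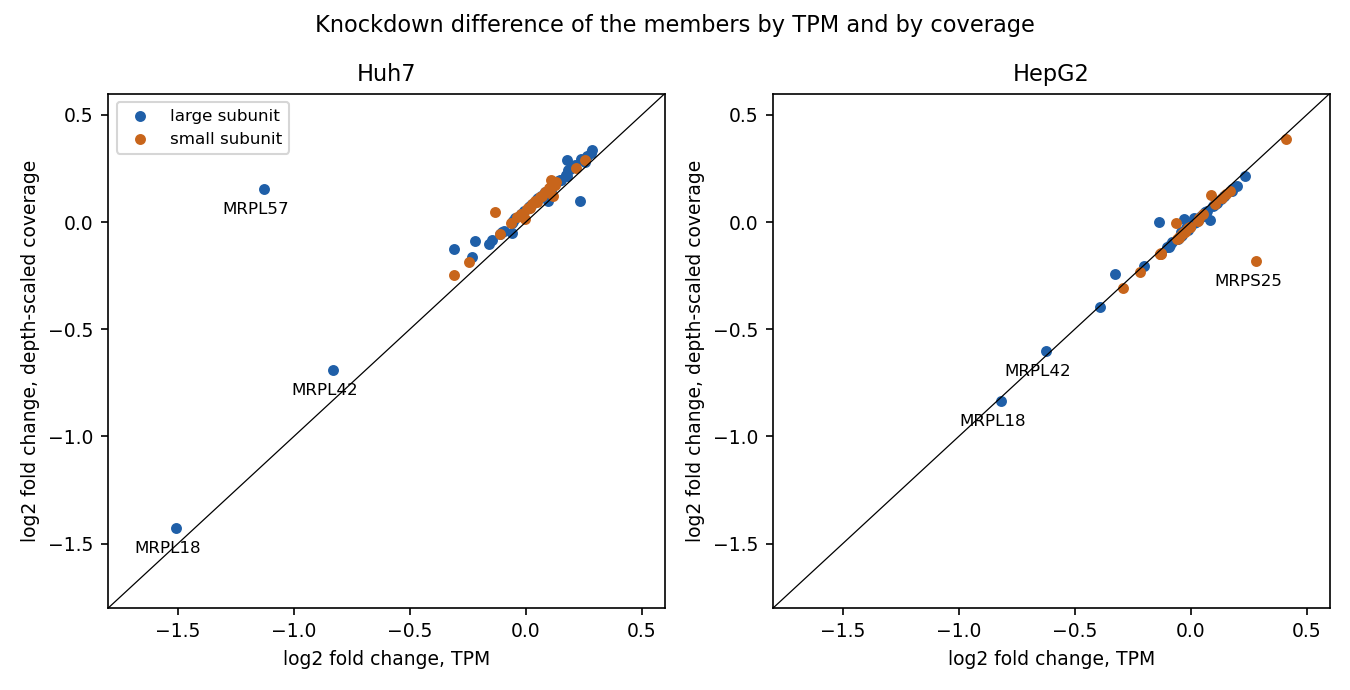
Log2 fold change with COP1-siRNA against NC-siRNA of the 77 members by TPM (x axis) and by depth-scaled coverage (y axis) in Huh7 and HepG2, with the line of equal values. MRPL18 and MRPL42 are low on both axes, while MRPL57 in Huh7 is low by TPM and at 0.15 by coverage.

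The 3′ UTRs of the members were searched for AGCAGTC, a 7-base sequence that earlier work on these libraries had picked because lowered genes of the study's list, MRPL18 among them, carry it. Its presence in MRPL18 is therefore no finding. In GENCODE 29, with 1 transcript for each gene and the sense strand only, 7 of the 77 members carry it, or 9.09%, where 9.39% of all tested genes that have a 3′ UTR do so in Huh7 and 9.46% in HepG2. The share in the family was thus near that of all genes. The longer AGCAGTCA occurs in 2 members, MRPL18 and MRPL42, or 2.60% of them, against 3.46% and 3.44%. Since MRPL18 is among the genes the sequence was picked from, nothing is read from its match or from the base that follows it.

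The sites of 4 members are printed to show the bases around the match, which is in capitals: the 2 with AGCAGTCA and 2 where another base follows. They are given 5′ to 3′ on the strand of the gene, from GRCh38.
MRPL18, chr6:159798333-159798361 (+): catctaagaaaAGCAGTCatcaattataa
MRPL42, chr12:93514905-93514933 (+): ttacattttttAGCAGTCatgtcatcctc
MRPL23, chr11:1956548-1956576 (+): agctgtggcagAGCAGTCccgacacctaa
MRPS17, chr7:55955400-55955428 (+): taagtgtgcctAGCAGTCtgttgcatttt

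In MRPL18 the match begins at base 221 of a 3′ UTR of 313 bases, in the single transcript with a 3′ UTR (ENST00000367034.4). In MRPL42 it begins at base 13695 of 14992, far down the longest 3′ UTR of the family (ENST00000549982.5). Only 1 of the 5 MRPL42 transcripts with a 3′ UTR holds the match, and the shortest of them has 99 bases. Which of these transcripts the cells made was not tested. MRPL23, with log2 fold changes of −0.31 and −0.33, and MRPS17, with −0.11 and −0.13, carry a C or a T after the match. The other carriers were MRPS25 (−0.002 and 0.28), MRPS11 with 2 matches (−0.13 and −0.06) and MRPL45 (0.03 and 0.14).

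When the longest 3′ UTR of each gene was taken, 7 members again carried AGCAGTC, with MRPL2 in place of MRPL23, and AGCAGTCA was found in 3. The third was MRPL2, whose log2 fold changes were 0.01 and 0.24. Only 1 of the 5 MRPL2 transcripts with a 3′ UTR holds the 8 bases, and whether the cells made that transcript was not tested. A match is a description of the annotated sequence and not of a site in use.

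Without MRPL18, MRPL42 and MRPL57, the other 74 members spanned a narrow range. It ran from −0.31 for MRPL23 to 0.28 for MRPL11 in Huh7, and from −0.39 for MRPL58 to 0.41 for MRPS18C in HepG2. In Huh7 51 of them were above 0 and 23 below, and in HepG2 39 and 35. The log2 fold changes of Huh7 and HepG2 were correlated over the 77 members, with a Pearson r of 0.71 and a Spearman rho of 0.40, and over the 74 with 0.44 and 0.33. The sign was the same in both lines for 47 of 77. These values were not computed over all genes tested, so whether they are particular to the members is unknown.

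Apart from the 3 above, the lowest mean log2 fold changes were those of MRPS26 and MRPL23. MRPS26, a mitochondria-specific protein of the small subunit, was at 125 TPM in Huh7 NC-siRNA, 101 in Huh7 COP1-siRNA, 182 in HepG2 NC-siRNA and 149 in HepG2 COP1-siRNA. MRPL23, which belongs to the family of a bacterial protein at the exit of the peptide tunnel, was at 71.3, 57.3, 169 and 135 TPM in the same order. Both were lower with COP1-siRNA in each line, by −0.31 and −0.29 for MRPS26 and by −0.31 and −0.33 for MRPL23. MRPL23 had the lowest coverage of any member in each library, between 6.31 and 14.7 reads per base at 57.3 to 169 TPM. By coverage its log2 fold changes were −0.13 and −0.24. At this low coverage the 1 added before the ratio draws them towards 0. Its coverage per unit of TPM shifted with COP1-siRNA by 0.995 (Huh7) and 0.998 (HepG2) of the median shift of the members. The −0.13 and −0.24 are thus not read as a weaker fall. MRPL23 also overlaps the small RNA gene SNORD131 on its own strand.

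The highest mean log2 fold changes were small. MRPS18C, of the small subunit, was at 39.8 TPM in the Huh7 control and 42.5 after knockdown, and at 47.8 and 64.0 TPM in HepG2. Its log2 fold change was 0.09 in Huh7 and 0.41 in HepG2. MRPL11 and MRPL10, whose bacterial relatives form the base of the factor-binding stalk of the large subunit, had 0.28 and 0.20, and 0.26 and 0.18. MRPL50 had 0.28 and 0.14, and MRPS14 0.22 and 0.17. None of these reached 1.5-fold in either line, where higher values of that size were found for 2.8% and 2.56% of all genes as given above.

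The difference between the 2 lines in log2 fold change was largest for MRPL57 and MRPL18, both lower in Huh7 than in HepG2, by −0.93 and −0.69 on the log2 scale. By coverage MRPL18 kept its direction, with −0.59, whereas MRPL57 turned to 0.36. MRPL4 (0.23 in Huh7 and −0.14 in HepG2) and MRPL19 (−0.23 and 0.10) had opposite signs, with sizes under 0.3. By coverage MRPL4 was at 0.10 and 0.001, no longer of opposite sign. MRPS18C was the fifth, at 0.09 and 0.41. No member passed 1.5-fold in opposite directions.

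By subunit and by origin, the medians of the members lay close together. In Huh7 the median log2 fold change was 0.07 for the 51 proteins of the large subunit and 0.05 for the 26 of the small subunit. In HepG2 it was 0.02 and −0.02. The 46 members with a bacterial homologue had medians of 0.06 and 0.009, and the 31 mitochondria-specific ones 0.05 and −0.001. MRPL18, with a bacterial homologue, and MRPL42, mitochondria-specific, are both of the large subunit, as is MRPL57, which was lower in Huh7 by TPM but not by coverage.

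Other genes that serve mitochondrial translation also stayed near their control level. The 5 mitochondrial ribosomal proteins that carry other names (AURKAIP1, CHCHD1, DAP3, GADD45GIP1 and PTCD3) had medians of 0.08 in Huh7 and 0.09 in HepG2, and none passed 1.5-fold. None of 13 mitochondrial translation factors and none of 17 mitochondrial tRNA synthetases passed it either, with medians of −0.03 and 0.02, and of 0.07 and 0.03. Among 24 genes for assembly of the mitochondrial ribosome and modification of its RNA, with medians of 0.04 and −0.002, only MTERF4 passed it. MTERF4, which brings an RNA methyltransferase to the mitochondrial ribosome, was at 14.6 TPM in the Huh7 control and 17.5 after knockdown, and at 26.3 and 16.9 TPM in HepG2. Its log2 fold change in HepG2 was −0.61 by TPM and 0.02 by coverage, so the lower value there was not seen in the coverage.

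The 80 cytosolic ribosomal proteins, the counterpart family, had medians of 0.01 and 0.003, and none passed 1.5-fold. The lowest and highest of their log2 fold changes were −0.41 and 0.20 (Huh7) and −0.28 and 0.21 (HepG2). The 75 nuclear-encoded respiratory chain subunits had medians of −0.005 and 0.02, with COX7A2, a subunit of cytochrome c oxidase that is on the study's list too, the only one past 1.5-fold in each line.

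**Figure D3:**
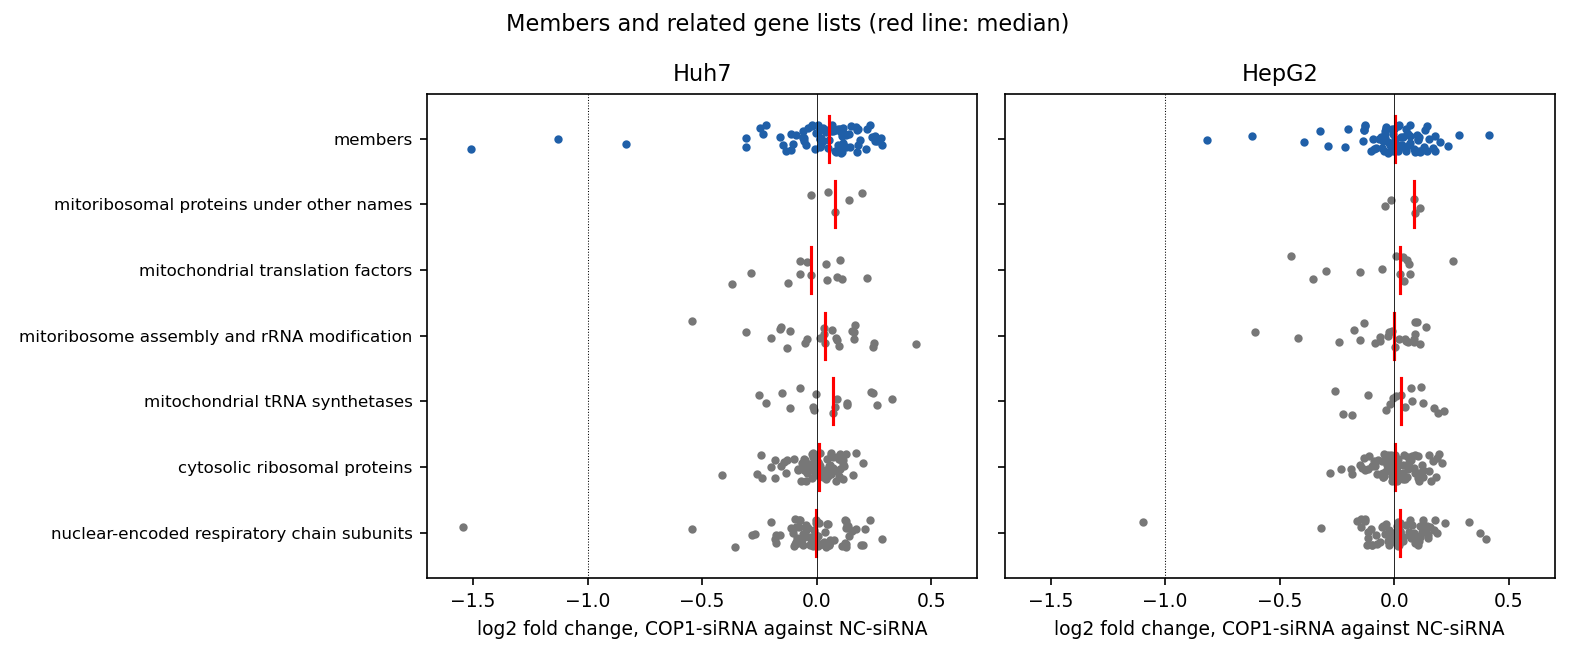
Log2 fold change with COP1-siRNA against NC-siRNA in Huh7 and HepG2 for the members and 6 related gene lists, 1 point for each gene tested, with the median in red and 2-fold lower dotted. Medians lie between −0.03 and 0.09 in each list, with MRPL18, MRPL57 and MRPL42 to the left among the members and COX7A2 among the respiratory chain subunits.

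The members differed more between the lines than between the siRNAs. Over the 77, the median size of the log2 difference was 0.11 between COP1-siRNA and NC-siRNA in Huh7, 0.07 in HepG2 and 0.54 between Huh7 and HepG2 with NC-siRNA. For 62 members the line difference exceeded both knockdown differences, a count not made for all genes. Genes at large showed the same pattern. Of all genes tested, 19.2% lay within 0.3 of 0 between the lines with NC-siRNA, against 77.5% in Huh7 and 80.9% in HepG2 between the siRNAs. Of the members, 31.2% lay within 0.3 of 0 between the lines with NC-siRNA. With NC-siRNA, 64 of 77, or 83.1%, were lower in Huh7 than in HepG2, against 63.0% of all genes tested, and the median of log2((TPM in Huh7 + 1)/(TPM in HepG2 + 1)) was −0.40. All genes tested also had a median below 0, at −0.37, and 40 members lay under it. How far the family stood from all genes varied with the values used. With median-of-ratios scaling the medians of members and of all genes were −0.14 and −0.13, and 49 members stayed lower in Huh7. By depth-scaled coverage they were −0.47 and −0.29, with 57 members under the median of all genes. With FPKM they were −0.47 and −0.38, and with a minimum of 5 TPM −0.40 and −0.30, with 45 members under it in each case.

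A difference of at least 2-fold with NC-siRNA was found for 15 members lower in Huh7, or 19.5%, against 27.9% of the genes tested. In the other direction there was 1 member, MRPL11, against 14.7%. With COP1-siRNA these counts were 13 and 1, against 26% and 14% of the genes tested, and 12 members were at least 2-fold lower in Huh7 in both comparisons, against 23.6%. In both, 62 members were higher in HepG2 and 11 in Huh7, while 4 changed side. The line differences with NC-siRNA and with COP1-siRNA, which share no library, were correlated over the 77 members with a Pearson r of 0.96 and a Spearman rho of 0.95.

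MRPL11 was at 477 TPM in Huh7 NC-siRNA, 582 in Huh7 COP1-siRNA, 133 in HepG2 NC-siRNA and 153 in HepG2 COP1-siRNA. It had the highest TPM of the family in both Huh7 libraries and place 29 and 21 in those of HepG2. The TPM in Huh7 was 3.60 times that in HepG2 with NC-siRNA and 3.81 times with COP1-siRNA. On the log2 scale with NC-siRNA this is 1.84 by TPM and 1.72 by coverage.

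MRPL15, of a family of bacterial large-subunit proteins, lay at the other end. Its TPM was 30.9 in Huh7 NC-siRNA, 37.1 in Huh7 COP1-siRNA, 140 in HepG2 NC-siRNA and 145 in HepG2 COP1-siRNA, a log2 line difference of −2.15 with NC-siRNA and −1.94 with COP1-siRNA. MRPL39 followed with 41.1, 45.8, 161 and 167 TPM and differences of −1.94 and −1.85. For both genes the 2 Huh7 libraries were far below the 2 HepG2 libraries. MRPS21 (−1.64 with NC-siRNA), MRPS31 (−1.63) and MRPL55 (−1.54) completed the 5 lowest, and their differences with COP1-siRNA were −1.62, −1.59 and −1.52.

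Higher in Huh7 after MRPL11 were MRPL57 (0.96), MRPL21 (0.75), MRPS30 (0.67) and MRPS35 (0.64) with NC-siRNA. With COP1-siRNA, MRPL21, MRPS30 and MRPS35 stood at 0.81, 0.65 and 0.75, whereas MRPL57 stood at 0.03. By coverage the line difference of MRPL57 with NC-siRNA was −0.30, so its higher TPM in the Huh7 control was not seen in the coverage. MRPL18, already lower in Huh7 with NC-siRNA at −0.33, was lower still with COP1-siRNA at −1.02.

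**Figure D4:**
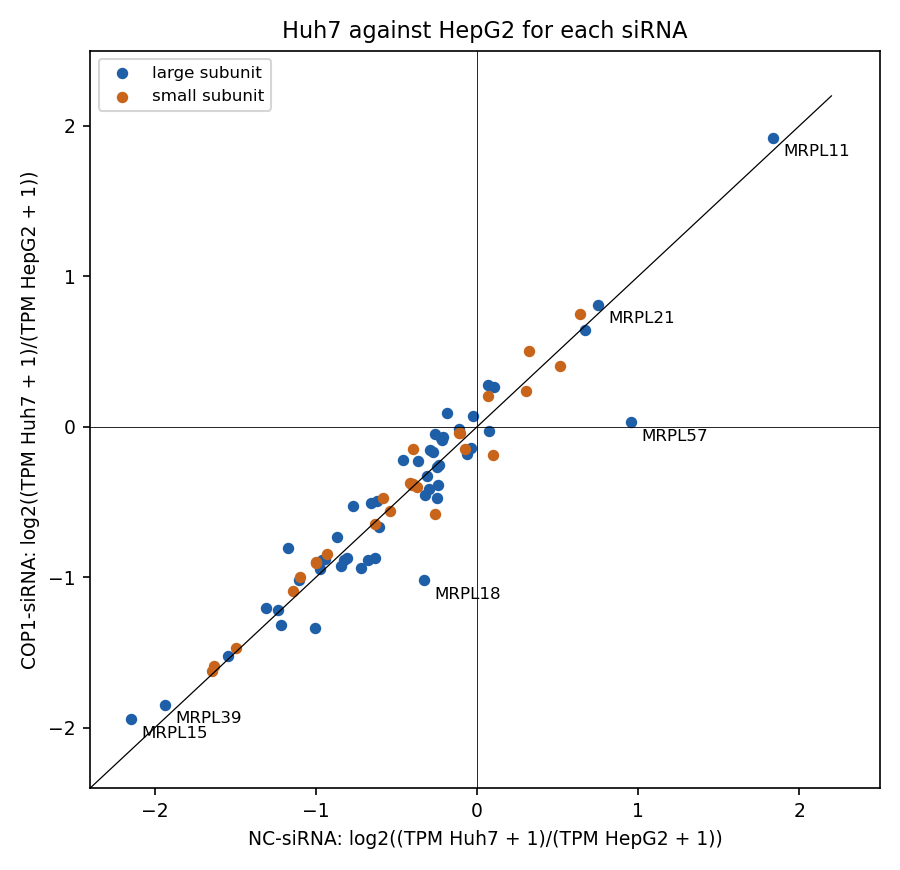
Log2 difference between Huh7 and HepG2 for each member with NC-siRNA (x axis) and with COP1-siRNA (y axis), on the log2(TPM + 1) scale, with the line of equal values. Points below 0 are lower in Huh7. Most members lie along the line, from MRPL15 at −2.15 and −1.94 to MRPL11 at 1.84 and 1.92, with MRPL57 and MRPL18 below it.

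Cytosolic ribosomal proteins differed between the lines by more than the mitochondrial ones. Their median line difference with NC-siRNA was −0.80, with 74 of 80 lower in Huh7, and their summed TPM was 111047 in Huh7 NC-siRNA and 205547 in HepG2 NC-siRNA. For the respiratory chain subunits the median was −0.23, with 50 of 75 lower. No test of the difference between these lists was run.

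Levels within the family covered a wide range. The lowest and highest member were 33.4-fold apart in Huh7 NC-siRNA and 23.2-fold in HepG2 NC-siRNA, and the median member was at 80.1 and 122 TPM. By mean TPM over the 4 libraries the highest were MRPL37, MRPL11, MRPL51, MRPS24 and MRPL3, and the lowest MRPL42, MRPS25, MRPS33, MRPL19 and MRPS23. MRPL37, a mitochondria-specific protein of the large subunit, was at 386 TPM in the Huh7 control and 346 after knockdown, and at 458 and 480 TPM in HepG2. In the same order MRPL51 was at 304, 308, 289 and 314 TPM. Likewise MRPS24 was at 303, 321, 245 and 272 TPM, and MRPL3 at 255, 251, 303 and 302. None of these levels changed by 1.5-fold with COP1-siRNA.

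At the low end, MRPS33 lay between 20.8 and 24.1 TPM in all 4 libraries, and in the order used above MRPL19 was at 16.1, 13.5, 33.2 and 35.7, and MRPS23 at 19.0, 20.0, 39.0 and 38.2. MRPL19 and MRPS23 were lower in both Huh7 libraries than in both HepG2 libraries, and MRPS33 was not. The order of the members was largely kept after knockdown, with a Spearman correlation of log2 levels of 0.96 between the 2 Huh7 libraries and 0.98 between the 2 HepG2 libraries, against 0.78 between the NC-siRNA libraries of the 2 lines.

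**Figure D5:**
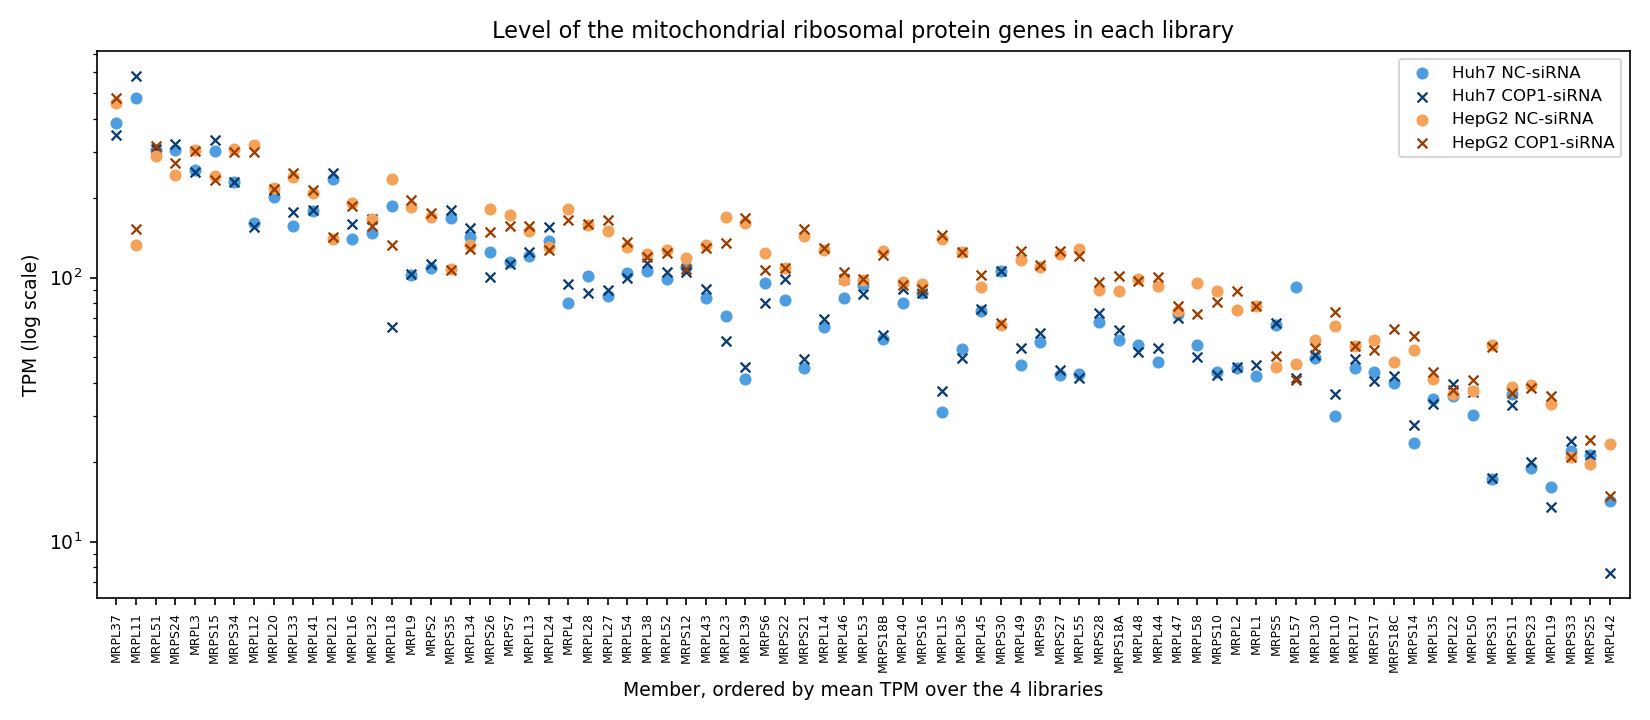
TPM on a log axis of each of the 77 members in the 4 libraries, ordered by mean TPM. Blue is Huh7 and orange HepG2, circles are NC-siRNA and crosses COP1-siRNA. Circle and cross of a line nearly coincide for most members, MRPL18 and MRPL42 have crosses well below their circles in both lines, and MRPL57 in Huh7, with a smaller gap in HepG2.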

How the data were processed

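Poly(A)+ RNA of 4 libraries (Huh7 and HepG2, NC-siRNA or COP1-siRNA, all of 1 labelled batch) was sequenced with a stranded kit. The submitters' processing notes name FastQC 0.11.7, Trimmomatic 0.38, HISAT2 2.1.0, StringTie 2.1.3b, edgeR and GRCh38. The authors deposited TPM values for each gene and library, normalized within the library. The authors also deposited FPKM values, proportional to TPM, and coverage, the average count of reads covering a base of the gene, not scaled for depth. The tables hold no read counts, so the depth and the precision of a value are unknown, and relative depth was taken from the most common ratio of coverage to FPKM. The coverage used here was divided by this ratio, so coverage fold changes use a pseudocount of 1 on the FPKM scale, not the TPM scale. Where coverage is low, this draws them towards 0.

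The name column of the tables was empty. Symbols were taken by gene number from RefSeq (GRCh38.p14), where 44698 of 46427 numbers (96.3%) were found, and TPM was summed per gene number. Gene coordinates are those the authors deposited with the values, and gene classes follow the systematic protein names in RefSeq for 75 members. Of the members, 3 overlap a gene of at least 1 TPM on the same strand and 18 on the opposite strand, and how such reads were divided is not given in the sources used here. Of 48 pseudogenes of members, 2 reached 1 TPM, with at most 7.29 TPM.

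Log2 fold changes used a pseudocount of 1, a minimum of 1 TPM in a library of the pair and a 2-fold threshold, with 1.5-fold beside it. Only the 2-fold threshold is the study's, which also set a limit on p-values that was not applied here. No test was made, and a paired fit over the lines was left out. Members, lists, the sequence AGCAGTC and the rules for naming genes were chosen with earlier results of these data known. Named members were MRPL18, those past 2-fold in either or 1.5-fold in both lines, the 5 at each end of the mean log2 fold change, mean TPM and line difference, the 5 whose lines differed most, and genes of the related lists past 1.5-fold. Members named for another reason (MRPL58, MRPL2 and the carriers of AGCAGTC) were chosen after their values were seen. Alternatives were a pseudocount of 0.1, FPKM, upper-quartile and median-of-ratios scaling, no minimum and a minimum of 5 TPM, depth-scaled coverage, table lines kept apart, a 1.5-fold threshold and, chosen after seeing the data, a plain TPM ratio. The 3′ UTRs were cut from GENCODE 29, with the principal transcript and then the longest 3′ UTR. The computation was tested on simulated data with large changes planted in well-expressed genes, which does not bear on smaller changes, low levels or coverage. Python 3.11.15 with numpy 2.4.6, pandas 2.3.3 and matplotlib 3.10.9 was used.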

Additional observations from a re-analysis of the deposited data

How the results depend on the processing

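With 1 library for each line and siRNA, no alternative stands in for replicates, and none of the values below has an error. Of 107 counts and medians recomputed, 98 stayed within 1.5 times the reported count or 0.1 of the reported median. This total includes settings that could change nothing. No member was under 7.60 TPM, so dropping the minimum or raising it to 5 TPM left every count, median and named member value as it was. With depth-scaled coverage the members at least 2-fold lower in Huh7 numbered 1 in place of 2, because MRPL57 went from −1.13 to 0.15. At 1.5-fold, 2 members were lower in HepG2 and 2 in both lines, in place of 0 and 0. The line counts with NC-siRNA, 15 lower and 1 higher in Huh7, were 33 and 5 at 1.5-fold, and the higher count was 2 with upper-quartile scaling. With median-of-ratios scaling they were 7 and 3, with a median of −0.14. That scaling moved the median of all genes between the lines from −0.37 to −0.13, so line differences are best read against it. MRPL18 lay between −1.52 and −1.43 (Huh7) and between −0.84 and −0.79 (HepG2), and MRPL42 between −0.91 and −0.69 and between −0.66 and −0.60. The −0.69 of MRPL42 came with depth-scaled coverage, where the pseudocount draws low values towards 0. Of 486 values of named members, 23 changed sign, 2 of them where the reported size was at least 0.2, MRPL57 in Huh7 and MRPS25 in HepG2, both with coverage. The causes were not tested.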
